A study of Homo sapiens with 9 samples.

Results

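The laminins and hemidesmosome components described here are 9 genes, chosen by their symbols, and all 9 were present in every library, out of 16199 genes listed in at least 1 library. HaCaT cells, an immortalized human keratinocyte line labelled as wild type, had grown past confluence and were kept in serum-free medium without an added factor (untreated), with EGF (10 nM) or with bleogen pB1 (1 µM), both for 24 h. Each group had 3 replicates, and nothing states whether these came from separate cultures, so that the p-values measure only the spread between these samples. Bleogen pB1 is a small cysteine-rich plant protein that acts as an agonist of the EGF receptor. The comparisons ask how far each ligand changes the transcripts of the structure that fixes basal keratinocytes to the basement membrane. The ligands were given at different molar doses and only at 1 time, so a difference between them is a difference between these treatments.

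Laminins are secreted trimers of an α, a β and a γ chain that assemble into the basement membrane sheet. Laminin-332 (with chains from LAMA3 and LAMB3) is the main laminin under epidermis and the ligand of the hemidesmosome, whereas laminin-511 (LAMA5, LAMB1 and LAMC1) is found in most epithelial basement membranes. In the hemidesmosome, the integrin α6β4 and the transmembrane collagen XVII (COL17A1) bind laminin-332 outside the cell, and the plakins plectin (PLEC) and BPAG1 (an epithelial product of DST) tie them to keratin filaments inside. Collagen VII (COL7A1) forms the anchoring fibrils under the basement membrane. Inherited loss of laminin-332, of the hemidesmosome proteins or of collagen VII causes skin blistering.

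The expected counts (estimated fragments per gene) summed to between 20288417 and 21320994 per library. On these sums a floor of 3 counts stood at 0.141 to 0.148 CPM (counts scaled to a common library size), which covers counting error only. The CPM values below also use a scaling factor for each library, which was left out of this floor. Every member lay far above it. All 7 keratinocyte markers examined (KRT5, KRT14, TP63, CDH1, KRT10, DSG3 and SFN) reached an FPKM (fragments scaled for transcript length and depth) of 1. The summed FPKM of 7 fibroblast markers was 1.42 to 1.8 without treatment, 1.14 to 1.85 with bleogen pB1 and 0.23 to 0.34 with EGF, and none of the 7 reached an FPKM of 1. The summed FPKM of 4 endothelial and of 4 melanocyte markers stayed at or under 0.26 and 0.87. Of 4 immune markers, PTPRC, CD3E and CD14 stayed at or under 0.17 FPKM in every library. Only CD68, a lysosomal protein that is not limited to immune cells, reached an FPKM of 1, with 6.53 to 6.82 without treatment, 5.74 to 6.49 with bleogen pB1 and 10.1 to 11.3 with EGF. The part of these markers in the results was not tested. RNA of whole cultures was measured, in which a change in the share of cells that express a gene and a change in RNA per cell cannot be told apart.

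The members lie on 8 chromosomes of GRCh38 (GENCODE release 44): LAMA3 on chromosome 18 (23689453 to 23956222), LAMB3 (209614870 to 209652425) and LAMC1 (183023420 to 183145592) on chromosome 1, LAMA5 on chromosome 20 (62307955 to 62367312), LAMB1 on chromosome 7 (107923799 to 108003213), COL17A1 on chromosome 10 (104031286 to 104085880), COL7A1 on chromosome 3 (48564073 to 48595329), DST on chromosome 6 (56457987 to 56954830) and PLEC on chromosome 8 (143915153 to 143976734). LAMA5, LAMB1, LAMC1 and DST, and LAMA3 with a processed pseudogene, overlap annotated genes on the opposite strand, and the use of strand in the counting is not given in the sources used here, so a part of their counts could belong to those neighbours.

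The start sites printed below were chosen by the direction of the gene under EGF and by their sequence. A link of sequence to direction was not tested. RefSeq windows (GRCh38.p14; 250 bases before to 50 after an annotated start) were found for 8 of the 9 members, 12 windows in all. PLEC had none, and LAMA3 had none at the start of its long transcripts. AP-1, the transcription factor family of FOS and JUN, binds TGACTCA or TGAGTCA, which was searched on both strands together with the GC box (GGGCGG) and an E-box (CACCTG). The 250 bases before the start of the short LAMA3 transcripts, before a start of LAMB3 inside the gene, and before the starts of COL17A1 and LAMA5 are printed 5′ to 3′ on the strand of the gene, with matches to the AP-1 motif and the GC box in capitals.

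LAMA3 (chr18:23872770-23873019, plus strand): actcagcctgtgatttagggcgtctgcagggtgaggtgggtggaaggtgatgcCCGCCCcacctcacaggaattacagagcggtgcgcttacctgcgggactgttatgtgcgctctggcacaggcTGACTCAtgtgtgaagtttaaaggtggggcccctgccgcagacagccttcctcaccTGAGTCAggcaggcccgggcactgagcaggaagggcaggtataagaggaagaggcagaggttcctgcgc

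LAMB3 (chr1:209651375-209651624, minus strand): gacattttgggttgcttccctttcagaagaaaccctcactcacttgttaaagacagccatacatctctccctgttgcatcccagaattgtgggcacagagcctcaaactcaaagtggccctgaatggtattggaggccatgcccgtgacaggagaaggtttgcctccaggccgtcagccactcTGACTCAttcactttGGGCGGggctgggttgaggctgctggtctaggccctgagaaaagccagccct

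COL17A1 (chr10:104085881-104086130, minus strand): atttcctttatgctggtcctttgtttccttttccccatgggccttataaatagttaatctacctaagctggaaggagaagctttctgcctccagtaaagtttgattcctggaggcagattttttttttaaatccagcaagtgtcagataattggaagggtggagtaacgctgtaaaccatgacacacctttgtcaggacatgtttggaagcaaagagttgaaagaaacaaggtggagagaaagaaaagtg

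LAMA5 (chr20:62367313-62367562, minus strand): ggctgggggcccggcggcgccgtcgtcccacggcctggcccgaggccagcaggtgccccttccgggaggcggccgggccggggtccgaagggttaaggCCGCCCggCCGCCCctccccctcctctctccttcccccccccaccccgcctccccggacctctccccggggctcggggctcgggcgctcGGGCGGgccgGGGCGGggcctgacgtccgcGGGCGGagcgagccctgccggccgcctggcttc

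The LAMA3 window held 2 AP-1 motifs, whose first bases lie 125 and 69 bases before the start, and the second of them overlaps an E-box that begins 73 bases before the start. E-boxes were also found in 1 of the 3 LAMB3 windows, 218 bases before the start, and in that of LAMA5, 201 bases before it. Of the 3 LAMB3 windows only the printed one held an AP-1 motif, 67 bases before the start. The window of the longest DST transcript, which is not printed, held 1, 25 bases after the start. No AP-1 motif was found in the windows of COL17A1, LAMA5, LAMB1, LAMC1 and COL7A1 or in the other 2 of DST. Of 35116 windows of this length in the table, 4.95% held the AP-1 motif, 20.6% the E-box and 45.0% the GC box. LAMA5 held 5 GC boxes and LAMB1 4, and 82.7% and 71.0% of their bases were G or C, against 61.7% for LAMA3 and 40.7% for COL17A1, whose window held no GC box. LAMC1 (79.0% G or C) and COL7A1 (62.3%) held 3 GC boxes each, and the window of the longest DST transcript (80.0%) held 4. A motif match describes these letters and does not show that a factor was bound.

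Levels of different genes were compared as FPKM, which is scaled for length. In untreated cells LAMB3 was the most abundant member at 177.6 ± 3.38 FPKM (SD, n = 3 here and for every level below), followed by COL17A1 at 153.9 ± 6.21. LAMA3 stood at 50.7 ± 1.93, LAMA5 at 44.3 ± 1.74, DST at 37.9 ± 1.79, LAMC1 at 32.7 ± 1.77, LAMB1 at 31.95 ± 1.92, COL7A1 at 29.0 ± 0.96 and PLEC at 26.8 ± 1.49. In this order the libraries overlapped between neighbours only for LAMC1 with LAMB1 and for COL7A1 with PLEC. The α and β chains of laminin-332 were thus listed at unequal levels, with LAMB3 above LAMA3.

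With EGF the order changed. LAMB3 (267.5 ± 40.6 FPKM), COL17A1 (233.7 ± 9.18) and LAMA3 (199.2 ± 13.6) were then the highest, and of these LAMB3 and COL17A1 overlapped. PLEC, the lowest member without treatment, followed with 85.1 ± 13.7 FPKM. DST was the lowest at 15.6 ± 3.23 FPKM, and its libraries overlapped with those of LAMB1 (19.8 ± 2.65). With bleogen pB1 the levels ran from 176.9 ± 11.9 FPKM for LAMB3 to 27.2 ± 2.54 for PLEC, and COL7A1 stood above LAMB1 with overlapping libraries.

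EGF raised LAMA3 3.99-fold and PLEC 3.30-fold, raised LAMB3 1.57-fold and COL17A1 1.58-fold, and lowered LAMA5, LAMB1 and DST. A gene was called when edgeR's quasi-likelihood test gave a Benjamini-Hochberg adjusted p of at most 0.05 over 12394 genes and the log2 fold change was at least 0.5 in size. By this rule 7 of the 9 members were called, where 36.9% of all tested genes were. Of these, 4 were higher (15.1% of all genes) and 3 lower (21.8%). The EGF-treated and untreated libraries did not overlap in CPM for any member, as for 70.4% of all genes, so that this alone says little about the members. The median log2 fold change of the members was −0.21, and that of all genes −0.01.

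LAMA3, the α chain of laminin-332, had 286.9, 279 and 299.3 CPM in the untreated libraries and 1074, 1219 and 1158 in the EGF-treated ones. Every EGF-treated library lay far above every untreated one. The log2 fold change was 2.00 (SE 0.06, adjusted p = 1.6e-10 by edgeR), the largest of any member. LAMB3, its β chain, had 707.7, 702.3 and 719.3 CPM without and 938.4, 1266 and 1140 CPM with EGF. The rise held in 3 of 3 libraries, but these were spread more widely than the untreated ones. Its log2 fold change was 0.65 (SE 0.09, adjusted p = 4.5e-05 by edgeR), with a 95% interval from 0.45 to 0.85. LAMA3 and LAMB3 thus rose by unequal factors.

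The chains of laminin-511 lay lower with EGF, and 2 of the 3 were called. LAMA5, the α5 chain, fell from 505.9, 480.5 and 511.6 CPM to 264.2, 247.5 and 248.9 CPM. All 3 treated libraries were close together and well below the untreated ones. Its log2 fold change was −0.98 (SE 0.07, adjusted p = 1.6e-07 by edgeR). LAMB1, the β1 chain, fell from 183.2, 174 and 193.6 CPM to 133.7, 101.4 and 121.2 CPM, a log2 fold change of −0.63 (SE 0.09, adjusted p = 3.5e-05 by edgeR). The lowest of these was EGF replicate 2, which also had the highest LAMB3 and PLEC. LAMC1, the γ1 chain shared by most laminins, was not called, with 255.5, 240.4 and 264.3 CPM without and 239.7, 200.3 and 219.7 CPM with EGF. Its log2 fold change of −0.21 (SE 0.07, adjusted p = 0.017 by edgeR) was under the limit of size.

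Put as shares, LAMA3 made up 53.0%, 53.6% and 53.6% of the summed FPKM of LAMA3 and LAMA5 in untreated cells and 89.2%, 90.9% and 90.5% with EGF. LAMB3 already held 84.8% ± 0.53 of LAMB3 and LAMB1 and reached 92.9% ± 1.88 (SD, n = 3). This is not a share of all β chains, since it leaves out LAMB2. That β chain stood at 51.85 ± 3.41 FPKM without and 9.29 ± 2.19 FPKM with EGF, and without treatment it lay above LAMB1. The ratio of LAMA3 to LAMB3 was 0.285, 0.280 and 0.291 without and 0.825, 0.696 and 0.735 with EGF. The listed levels of these chains were therefore closer to each other with EGF. None of these shares or ratios overlapped between the EGF-treated and the untreated libraries (two-sided exact permutation test, p = 0.1 for each, the smallest that 3 against 3 allow, and 0.15 after Benjamini-Hochberg adjustment over 15 tests). Transcript levels say nothing of assembled or secreted protein.

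The components of the hemidesmosome divided. COL17A1, the transmembrane collagen, rose from 883.8, 828 and 823.6 CPM to 1405, 1291 and 1321 CPM, a log2 fold change of 0.66 (SE 0.07, adjusted p = 2.1e-06 by edgeR). All 3 treated libraries exceeded the highest untreated one. PLEC, the plakin plectin, rose from 382.2, 378.2 and 413.8 CPM to 1090, 1493 and 1289 CPM. Its log2 fold change was 1.72 (SE 0.10, adjusted p = 3.1e-08 by edgeR), the second largest rise of the members. DST, which encodes the other plakin of the plaque and also longer isoforms, fell from 414.7, 391.5 and 429.8 CPM to 226, 162.8 and 193.4 CPM. This was the largest fall of the members, with a log2 fold change of −1.09 (SE 0.11, adjusted p = 2.7e-06 by edgeR). The ratio of DST to PLEC in FPKM was 1.45, 1.40 and 1.39 in untreated and 0.264, 0.126 and 0.184 in EGF-treated libraries. The fall of DST and this ratio are of all its transcripts, and the part of the epithelial form in them is not known. The ratio of COL17A1 to PLEC went from 5.75 ± 0.43 to 2.81 ± 0.57 (SD, n = 3). PLEC was listed with 8 transcripts, and its rise and both ratios are of all of them. The part of any 1 form of plectin in them was not told apart.

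COL7A1, of the anchoring fibrils, was not called with EGF. It had 261, 254.5 and 268.3 CPM without and 209.1, 225.7 and 224.1 CPM with EGF, a log2 fold change of −0.25 (SE 0.08, adjusted p = 0.011 by edgeR). The groups did not overlap, and the change was under the limit of size. Both integrin subunits of the hemidesmosome were read beside the members. ITGA6, the α6 subunit, rose from 591.8, 577.1 and 577.5 to 1569, 1314 and 1424 CPM, a log2 fold change of 1.30 (SE 0.07, adjusted p = 1.5e-08 by edgeR). ITGB4, the β4 subunit, had 1124, 1093 and 1036 CPM without and 1434, 1289 and 1323 CPM with EGF and was not called, with a log2 fold change of 0.31 (SE 0.08, adjusted p = 0.0029 by edgeR).

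Bleogen pB1 changed none of the 9 members by the same rule, where 1.48% of all tested genes were called (0.218% higher and 1.26% lower). No member had an unadjusted p under 0.05 in edgeR, and DESeq2 and limma called 0 as well. The libraries of the 2 groups overlapped for all 9, so that 0 did not overlap, against 29.1% of all genes. The log2 fold changes ran from −0.09 for LAMA5 to 0.11 for COL7A1, with edgeR adjusted p from 0.44 to 0.98. The 95% intervals of all 9 lay between −0.31 and 0.27, so that each excluded a change of 0.5 in either direction. A share of 0 of 9 is near that background.

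LAMA3 had 268.8, 288.7 and 277.5 CPM with bleogen pB1, of which the highest lay inside and the other two just below the range of the untreated libraries. Its log2 fold change was −0.05 (95% interval −0.19 to 0.08). PLEC had 352.4, 413.7 and 413.8 CPM, of which the first was the lowest of the 6 libraries and the other two equalled the highest untreated one within 0.1 CPM, with a log2 fold change of 0.01 (95% interval −0.21 to 0.23). DST had 432.9, 341.2 and 397.1 CPM, and LAMB3 748.4, 650 and 696.6 CPM. In both, replicate 1 of bleogen pB1 lay above and replicate 2 below every untreated library. LAMA5 had 500.3, 418.8 and 492.8 CPM, COL17A1 865.9, 762.6 and 841.9 CPM, and COL7A1 306.3, 245 and 291.9 CPM. The value of replicate 2 was the lowest of the 6 libraries for these 3 genes. LAMB1 had 179.1, 164.9 and 175.3 CPM, and replicate 2 was again the lowest of the 6 libraries. LAMC1 had 250, 242.4 and 251.2 CPM, all inside the range of the untreated libraries.

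The share of LAMA3 in LAMA3 and LAMA5 was 51.5%, 57.7% and 52.8% with bleogen pB1 and straddled that of untreated cells. LAMB3 held 85.8%, 85.0% and 85.1% of LAMB3 and LAMB1, overlapping with untreated cells as well. ITGA6 had 750.3, 849.3 and 819.1 CPM, above all untreated libraries. Its log2 fold change of 0.47 (SE 0.07, 95% interval 0.32 to 0.63, adjusted p = 0.0028 by edgeR) lay just under the limit of size, and without replicate 1 of bleogen pB1 it was called.

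**Figure D1:**
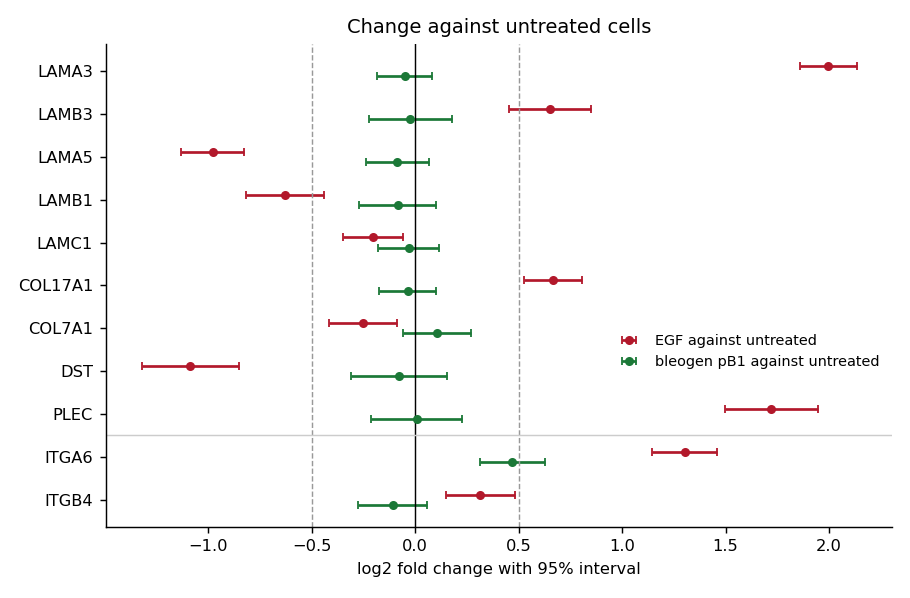
Log2 fold change against untreated cells with its 95% interval (edgeR, 3 libraries per group) for the 9 genes and, under the line, for ITGA6 and ITGB4, with dashed lines at the limit of 0.5. With bleogen pB1 all 9 intervals contain 0 and end inside the dashed lines, and with EGF they run from a fall of DST to a rise of LAMA3.

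In the direct contrast of EGF with bleogen pB1, the same 7 members were called as against untreated cells, of which 4 were higher with EGF (10.8% of all genes) and 3 lower (18.0%), where 28.8% of all genes were called. Again no member overlapped between the groups, as for 62.4% of all genes. This contrast and the one against untreated cells share the EGF-treated libraries. The differences were largest for LAMA3, with a log2 fold change of 2.05 (SE 0.06, adjusted p = 1.6e-10 by edgeR), and for PLEC, with 1.72 (SE 0.10, adjusted p = 4.6e-08 by edgeR). COL17A1 was higher with EGF by 0.70 (SE 0.07, adjusted p = 1.9e-06 by edgeR) and LAMB3 by 0.68 (SE 0.09, adjusted p = 5.2e-05 by edgeR). DST was lower by a log2 fold change of −1.01 (SE 0.11, adjusted p = 7.2e-06 by edgeR) and LAMA5 by −0.89 (SE 0.07, adjusted p = 4.9e-07 by edgeR). LAMB1 was called at −0.54 (SE 0.09, adjusted p = 0.00017 by edgeR), but not without EGF replicate 2, where the value was −0.43. COL7A1 (−0.36, SE 0.08, adjusted p = 0.0015 by edgeR) and LAMC1 (−0.17, SE 0.07, adjusted p = 0.042 by edgeR) were under the limit of size.

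How the deposited gene length was made is not given in the sources used here. It is read as an average over the transcripts of a gene in each library, which would move where long and short transcripts change against each other. It was the same in all 9 libraries for LAMA5, LAMB1, LAMC1, COL17A1 and COL7A1, each listed with 1 transcript. LAMA3 has short transcripts that start inside the gene, at the window printed above (LAMA3-201, 5618 bases in GENCODE), and long ones (LAMA3-202, 10651 bases). Its average length was 5796.6, 5783.5 and 5829.6 bases in untreated and 5661.5, 5650.4 and 5649.5 bases in EGF-treated libraries, nearer to the short form with a difference of the means of −149.4 bases. With bleogen pB1 it was 5830.6, 5837.0 and 5809.3 bases, overlapping with untreated cells.

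DST showed the widest movement in length. Its short epithelial transcript has 8971 bases in GENCODE (DST-205), and the longer ones run from 16742 to 24709 bases. The average was 11069.4, 10962.1 and 11092.7 bases in untreated, 11604.0, 12820.4 and 12051.5 in EGF-treated and 10551.7, 10757.8 and 10643.8 in bleogen pB1-treated libraries. The 3 groups did not overlap with each other, and the treatments lay on opposite sides of untreated cells, with differences of the means of 1117.3 bases for EGF and −390.3 bases for bleogen pB1. The group means of PLEC lay between 14756.0 and 14793.9 bases and those of LAMB3 between 4100.2 and 4103.3 bases. The 3 groups did not overlap for PLEC either. Its treatments also lay on opposite sides of untreated cells, by −19.2 bases for EGF and 18.7 bases for bleogen pB1. The share of all genes whose lengths did not overlap was not computed, so that this alone says little about the members. For LAMA3 with EGF and for DST and PLEC with both treatments the exact permutation test gave p = 0.1 (two-sided, n = 3 per group, the smallest possible), and 0.15 after Benjamini-Hochberg adjustment over 12 tests. Under this reading the lengths rest on estimated shares of transcripts, whose own error is not known.

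Other genes of the basement membrane zone were read from a list of 33, of which 31 passed the count filter. LAMA4 and LAMC3, with at most 1 count in any library, did not. With EGF 7 were called higher, 11 lower and 13 not at all, beside 15.1% higher and 21.8% lower of all genes. Their median log2 fold change was −0.32, and that of all genes −0.01. Of the 4 tested laminin chains 1 was higher and 2 were lower. LAMB2, the β2 chain, named after its values were seen, fell the most of the list, from 317.2, 282.3 and 286.9 to 69.2, 42.8 and 53.7 CPM (log2 fold change −2.42, SE 0.18, adjusted p = 2.5e-07 by edgeR). The remaining tested chains LAMA1, LAMA2 and LAMB4 had at most 2.92 CPM in any library. Of the 7 receptors, 3 were higher and 2 lower. ITGA3 and ITGB1, which form the laminin-binding integrin α3β1, rose by 0.92 (SE 0.06, adjusted p = 6.4e-08 by edgeR) and 0.72 (SE 0.05, adjusted p = 2.2e-07 by edgeR).

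Of the 12 other basement membrane genes 0 were called higher and 5 lower with EGF, where 15.1% and 21.8% of all genes were, so that the counts of so few genes are given as a description. NTN4, a netrin that binds laminins, fell from 62.2, 63.2 and 60.9 to 14.9, 12.7 and 13.8 CPM (log2 fold change −2.17, SE 0.12, adjusted p = 1.5e-08 by edgeR). On the log2 scale HSPG2, which encodes perlecan, fell by 0.89 (SE 0.09, adjusted p = 2.9e-06 by edgeR). The keratins of basal keratinocytes went in opposite directions. KRT5 fell by 1.12 (SE 0.08, adjusted p = 1.7e-07 by edgeR) and KRT14 rose by 0.88 (SE 0.07, adjusted p = 3e-07 by edgeR), both with near copies that could share reads. Of the 5 genes listed as maturation enzymes 2 were higher, PLOD3 and MMP9, and 1 lower. As a gelatinase, MMP9 bears the name of this group only loosely. MMP9, a gelatinase that was also named after its values were seen, rose the most of the list but from low levels, with 0.723, 0.59 and 1.15 CPM without and 2.7, 6.6 and 4.14 CPM with EGF (log2 fold change 2.44, SE 0.35, adjusted p = 4.6e-05 by edgeR). PLOD3, a collagen lysyl hydroxylase, rose by 0.85 (SE 0.07, adjusted p = 3.6e-07 by edgeR), and DAG1, the dystroglycan receptor of laminin, fell by 0.53 (SE 0.06, adjusted p = 4e-06 by edgeR).

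With bleogen pB1 none of the 31 was called in edgeR or DESeq2, where edgeR called 1.48% of all tested genes. An unadjusted p under 0.05 in edgeR was found for 10 of the 31. That share over all genes was not computed, so that this count alone says little about the list. Their median log2 fold change was −0.11. The smallest adjusted p were those of KRT14, which went from 1595, 1707 and 1433 to 2284, 2127 and 2189 CPM (log2 fold change 0.48, SE 0.07, adjusted p = 0.0017 by edgeR), and of ITGA6. Both were under the limit of size, and limma on FPKM called KRT14. PLOD3 (0.25, adjusted p = 0.055 by edgeR), NTN4 (−0.37, adjusted p = 0.072 by edgeR), DAG1 (−0.18, adjusted p = 0.085 by edgeR) and HSPG2 (−0.28, adjusted p = 0.092 by edgeR) followed without passing the test. The bleogen pB1-treated and untreated libraries did not overlap for 13 of the 31, these 4 among them, beside 29.1% of all genes. Between EGF and bleogen pB1, 7 of the 31 were higher and 11 lower with EGF (10.8% and 18.0% of all genes), with a median of −0.24 beside −0.01 for all genes.

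**Figure D2:**
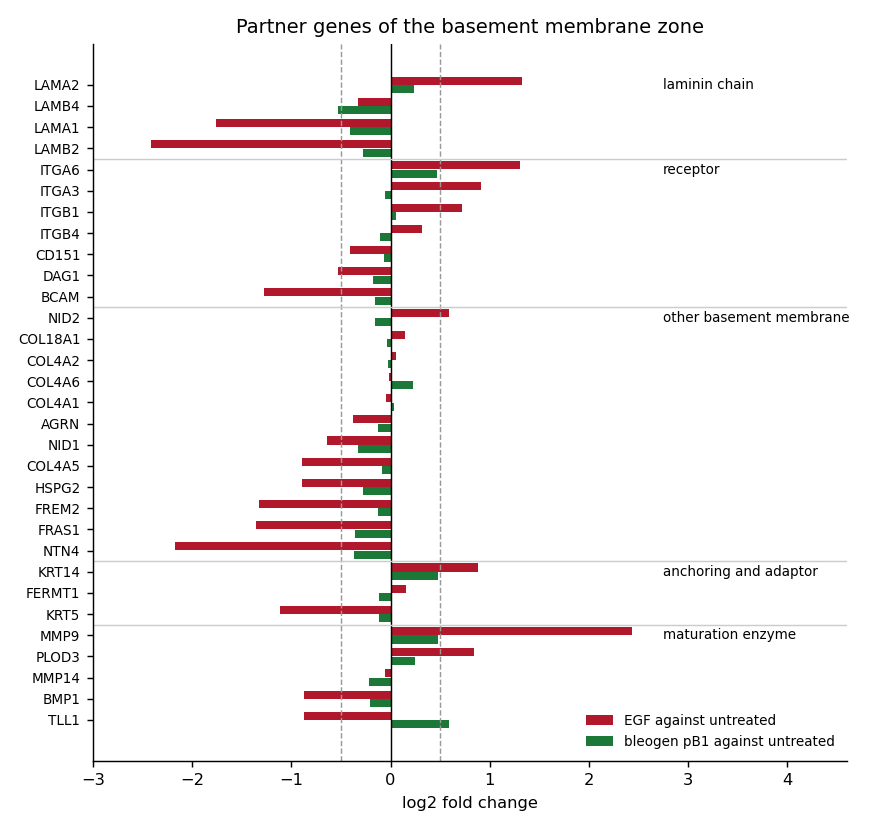
Log2 fold changes of the 31 tested partner genes against untreated cells, with EGF and with bleogen pB1 (edgeR, 3 libraries per group), grouped by role, with dashed lines at the limit of 0.5. With EGF, MMP9 and LAMA2 rise the most, both from low levels (at most 1.15 and 1.03 CPM in untreated libraries). LAMB2 and NTN4 fall the most with EGF, and no bar of bleogen pB1 is of a called gene.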

How the data were processed

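RNA of HaCaT cells was sequenced in 9 libraries, 3 per group, assigned from their titles. The authors worked in an online system of the sequencing company BGI, with GRCh38.p12 as the genome. The aligner and counting program are not given in the sources used here. Per gene, the authors deposited expected counts, which are unscaled estimates. The deposited FPKM values had been scaled by the authors for gene length and depth. The gene length deposited by the authors, in bases, is read as an average over RefSeq transcripts in each library. Genes missing from a file were counted as 0 in it.

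Expected counts were rounded and fitted over all 9 libraries with edgeR 4.0.16 in R 4.3.3 (filterByExpr, 12394 genes; TMM factors 0.9635 to 1.0238; estimateDisp, glmQLFit, glmQLFTest; 6 residual degrees of freedom; Benjamini-Hochberg). Standard errors are the log2 fold change over the square root of F, and 95% intervals use the total degrees of freedom. CPM used TMM-scaled library sizes. Shares, ratios and lengths were compared by two-sided exact permutation tests. The script was tested on simulated counts. Members and lists were chosen with earlier results of these data known. Beside the members, the text names by rule ITGA6, ITGB4 and the 6 partner genes with the smallest adjusted p in each comparison against untreated cells among those called in any comparison. A gene of the partner list that the rule names is not reported here and is in none of the counts, shares or medians of that list. Alternatives were DESeq2 1.42.0, RLE and upper-quartile factors, no filter, 6 libraries only, limma 3.58.1 on log2(FPKM + 1) or log2(FPKM + 0.1) (FPKM of at least 1 in 3 libraries, or no filter), other fold limits, the replicate number as a block, and each library left out. Sequences are from RefSeq (GRCh38.p14) and coordinates from GENCODE release 44, 1-based.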

Additional observations from a re-analysis of the deposited data

How the results depend on the processing

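For EGF against untreated cells each of the 9 members had its direction and its side of the thresholds in all alternatives that refit the data, and 7 were called in each of the 6 fits that left out 1 library. Upper-quartile factors shifted the median of all genes to −0.118 with EGF, and no member turned. With a limit of 1 on the log2 fold change 3 members were called against untreated cells and 3 against bleogen pB1, and 10 and 9 partner genes. Leaving out a library gave 6 to 7 members for EGF against bleogen pB1. For bleogen pB1 no alternative called a member. Its partner count of 0 became 1 (KRT14) in each of the 3 limma fits, 2 (KRT14 and ITGA6) with the adjusted p alone, and 0 to 1 when a library was left out (KRT14 without untreated replicate 2, ITGA6 without bleogen pB1 replicate 1). The cause was not tested.

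Values near 0 with bleogen pB1 changed sign when a library was left out, with ranges of −0.076 to 0.022 for LAMB3, −0.075 to 0.012 for COL17A1, −0.158 to 0.007 for DST and −0.034 to 0.080 for PLEC, which was also −0.01 with upper-quartile factors. The same held for differences in the LAMA3 share (−1.27 to 1.80 percentage points), the ratios LAMA3 to LAMB3 (−0.0203 to 0.00932), COL17A1 to PLEC (−0.583 to 0.231) and DST to PLEC (−0.174 to 0.120), and the LAMB3 length (−1.34 to 0.523 bases). Shares computed from counts in place of FPKM had the same direction in all 15 comparisons.

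Over all genes, 4578 were called for EGF, 183 for bleogen pB1 and 3564 between them. These counts were 8187, 509 and 7214 with the adjusted p alone and 1892, 31 and 1458 with a limit of 1. For bleogen pB1 limma without a filter called 99, and leaving out a library gave 102 (without untreated replicate 1 or bleogen pB1 replicate 3) to 436 (without bleogen pB1 replicate 1), with 109 without its replicate 2. With the replicate number as a block, 7, 0 and 7 members were called, and 4560, 186 and 3550 genes in all, so that the block changed no call of a member. Same-numbered libraries of different groups correlated in their deviations by −0.03 to 0.207, not above 0.1 in every pair, and the labels give only the number, so the pairing was not used.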
